A study of Mus musculus with 768 samples.

Results

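Vascular cancer-associated fibroblasts (vCAFs) that carried many reads of *Cspg4* were compared with vCAFs in which no *Cspg4* read was counted, within each of 2 mammary tumors. Members were chosen by measured values. A well was kept with at least 10000 endogenous reads and 1000 detected genes, and it was called vCAF-like when its mean log2(RPKM + 1) over 6 vascular genes was at least 4 and above its mean over 6 matrix genes. RPKM is the number of reads scaled by the length of the gene model and by the mapped reads of the cell. Of 768 wells, 717 were kept and 496 were vCAF-like. Of these, 62.7% had a *Cspg4* RPKM of at least 20 (Cspg4-high), 12.5%, or 62 cells, had 0 *Cspg4* reads (Cspg4-absent), and 24.8% lay between (middle), so that 75.2% of the vCAF-like cells entered the comparison.

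All cells came from tumors of 14-week-old FVB/N-Tg(MMTVPyVT)634Mul/J mice, in which the mouse mammary tumor virus promoter drives the polyoma middle T oncogene in mammary epithelium. They had been sorted as negative for EpCAM, CD45, CD31 and NG2 and sequenced by Smart-seq2, 1 cell per well on 1 plate of wells per tumor. Both *Cspg4* classes of a tumor share the plate and the handling, and with 1 plate for each tumor, tumor and plate cannot be told apart. Replication is by tumor (n = 2), and cells of a tumor are no independent samples.

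*Cspg4* encodes NG2, a transmembrane chondroitin sulphate proteoglycan. NG2 is widely used to recognise pericytes, the mural cells that wrap small blood vessels, and it binds collagen VI, integrins and growth factors. It is also made by oligodendrocyte precursors and by some smooth muscle cells. In these samples an antibody against NG2 had been used to remove cells, so every cell analysed here carried the label NG2-negative by protein, whereas the classes rest on RNA.

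The *Cspg4* gene lies on chromosome 9 from 56865104 to 56899870 (GRCm38, the assembly of mm10). A read of it was found in 84.7% of the vCAF-like cells in tumor 1 (exact 95% interval 79.7 to 88.8) and in 90.6% in tumor 2 (86.2 to 94.04). Cspg4-high cells were 57.9% (51.6 to 63.9) and 68.1% (61.7 to 73.995) of the vCAF-like cells, and Cspg4-absent cells were 15.3% (11.2 to 20.3) and 9.36% (5.96 to 13.8), or 40 and 22 cells. Intervals cover counting error only, since Smart-seq2 reads carry no molecular identifiers. The RPKM of Cspg4-high cells ran from 20.2 to 394.8 with a median of 51.1 in tumor 1, and from 20.1 to 196.3 with a median of 68.02 in tumor 2. Just outside the threshold, the highest middle cells had 19.3 and 19.9 RPKM, and the lowest cells with any read had 0.122 and 0.174. The fewest *Cspg4* reads in a Cspg4-high cell were 22 and 14, so that the high class did not rest on a few reads.

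**Figure D1:**
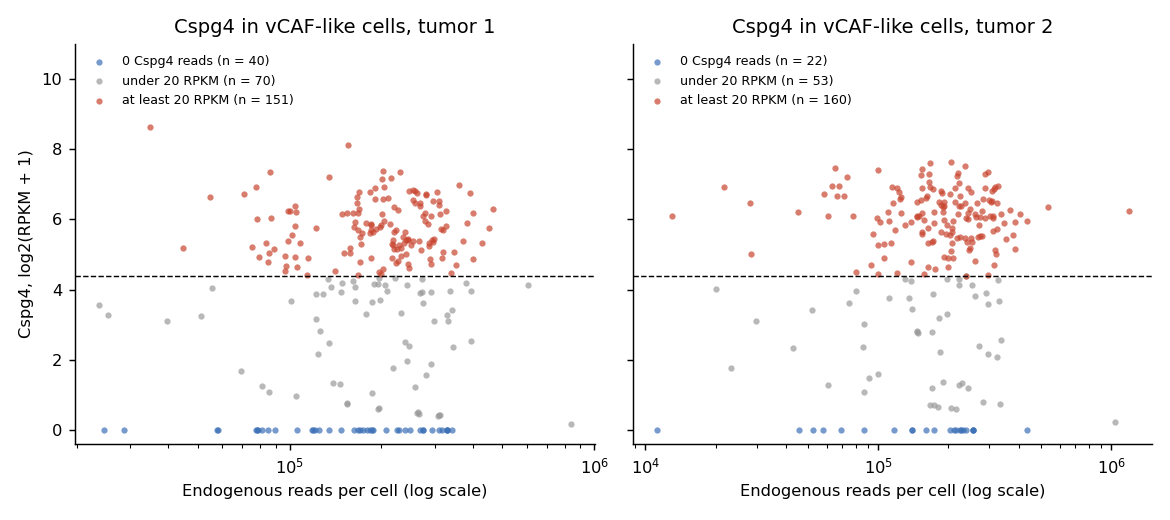
*Cspg4* level of each vCAF-like cell as log2(RPKM + 1), against its number of endogenous reads on a log scale, for tumor 1 (left) and tumor 2 (right). Points are cells, colors are the 3 classes and the dashed line is 20 RPKM. Cells with 0 reads lie over most of the depth range of the other cells, and the levels of the cells with reads run without a gap through the threshold.

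Where no read was found, counting error alone sets an upper limit that depends on the depth of the cell. A level of 3 reads would correspond to a median of 1.81 RPKM in the Cspg4-absent cells of tumor 1 (at most 6.85) and 1.82 RPKM in tumor 2 (at most 27.9, and over 20 in 1 cell). This limit thus lay below 20 RPKM, the threshold of the high class, in all but 1 absent cell. It covers the counting of reads only, and not RNA lost before sequencing. Whether the absent cells held less *Cspg4* RNA than the high class was therefore not tested. A low level of *Cspg4* was not detectable at this depth. Outside the vCAF-like cells, a *Cspg4* read was found in 73.3% (63.8 to 81.5) of the kept wells of tumor 1 whose matrix score was at least the vascular score and in 73.8% (64.4 to 81.9) of those of tumor 2, at a median depth of 262024 and 233504 reads. Their median *Cspg4* RPKM was 1.05 and 2.24, against 28.7 and 46.1 in all vCAF-like cells, whose median depth was 202729 and 191893 reads.

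The classes differed in depth and in RNA content per cell, and the part of this in the results that follow was not tested. Cspg4-absent cells had a median of 172361 and 188368 reads in tumors 1 and 2 and Cspg4-high cells 212906 and 197760. The medians of detected genes were 3685 and 3949 against 4192 and 4473. ERCC spike-ins, which are added in equal amount to each well, took a median of 16.1% and 15.4% of the reads in Cspg4-absent cells and 13.4% and 11.4% in Cspg4-high cells. Summed over cells, the Cspg4-absent libraries held 7153265 and 3801337 reads and the Cspg4-high libraries 32167347 and 33377268, so that levels of low genes in the absent class, above all in the 22 cells of tumor 2, are the least precise.

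The 12 genes of the 2 scores chose the cells and are given without a test. Apart from *Gja4*, each vascular gene had a read in 95% or more of the Cspg4-absent and of the Cspg4-high cells in each tumor. *Rgs5*, a regulator of G protein signaling and the most abundant of the 6, had a median of 7138 and 5587 RPKM in the Cspg4-absent cells of tumors 1 and 2 and 5468 and 5504 RPKM in the Cspg4-high cells. *Kcnj8* and *Abcc9*, the pore and the regulatory subunit of a potassium channel of mural cells, had log2 differences (high minus absent, summed counts) of 0.01 and 0.32. The gap junction gene *Gja4*, read in 72.5% and 90.9% of Cspg4-absent cells and in 89.4% and 88.8% of Cspg4-high cells, differed by 0.43, *Higd1b* by 0.19, *Rgs5* by −0.29 and *Rgs4* by −0.62, the last with most of its difference in tumor 2, where 36.4% of the reads of the absent library came from 1 cell. Among matrix genes, *Mfap5*, *Lum* and *Dcn* stood lower in Cspg4-high cells by 5.22, 3.30 and 2.98 on the log2 scale, and 1 cell gave 62.8% to 95.6% of the reads of each of these genes in each absent library. The other matrix genes of the rule, *Olfml3*, *Smoc2* and *Serpinf1*, differed by 0.51, −0.07 and 0.41.

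Genes outside the rule that mark vCAFs or pericytes were present in both classes. *Pdgfrb*, the receptor through which endothelial cells recruit pericytes, was read in every cell of both classes in both tumors, with 2710.4 and 2877 counts scaled to a common library size (CPM) in the Cspg4-absent libraries and 2699 and 2941 CPM in the Cspg4-high libraries. *Notch3* was read in 97.5% and 100% of Cspg4-absent cells and in 98.7% and 98.8% of Cspg4-high cells, and its level differed by −0.23 ± 0.17 (log2, SE).

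For the test, counts were summed per class and tumor, giving 4 libraries, and 11196 genes were fitted with edgeR's quasi-likelihood test with the tumor as a term, and the 11183 outside the rule are counted as tested. At a Benjamini-Hochberg adjusted p of 0.05 no gene was called, 0.0% of those tested, and the smallest adjusted p was 0.091 (edgeR). At an unadjusted p under 0.05, 776 genes differed (6.94%), of which 404 were higher in Cspg4-high cells (3.61% of those tested) and the rest lower (3.33%). With ERCC totals as library size, which shifts all genes, 1472 genes were higher and fewer were lower than with TMM, the scaling used here. DESeq2 on the same libraries called 2.03% of the genes, 0.993% higher and 1.04% lower. Of its lower calls, 37.9% had at least 50% of the reads of an absent library from 1 cell, while 7.21% of its higher calls had such a share in a Cspg4-high library. A limma fit on the class means of log2(RPKM + 1), in which each cell weighs the same, called 721 genes (6.45%), 645 higher (5.77%) and 76 lower (0.68%), and 12 higher (0.107%) and 5 lower (0.0447%) after every cell had been thinned to 50000 reads. Calls shared by DESeq2 and limma on class means, in the same direction, were 59.9% of the DESeq2 calls and 18.9% of the limma calls. All statements on single genes below are therefore values, with the tool named wherever a call is given.

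The 8 genes of smallest p that were higher in Cspg4-high cells, in both tumors and with a read in at least 25% of those cells, were *F2r*, *Ccnd1*, *Ttyh2*, *Stc1*, *Sh2b3*, *Dlk1*, *Cdk1* and *Trib2*. *F2r* encodes the thrombin receptor PAR1, which couples clotting to signaling in mural cells. It had 210.9 and 131.9 CPM in the Cspg4-absent libraries of tumors 1 and 2 and 998 and 1053 CPM in the Cspg4-high libraries, a log2 difference of 2.62 ± 0.25 (SE, 6.13-fold; edgeR adjusted p = 0.271, DESeq2 adjusted p = 3.28e-26). A read of it was found in 55% (38.5 to 70.7) and 45.5% (24.4 to 67.8) of Cspg4-absent cells, and in 88.7% (82.6 to 93.3) and 86.3% (79.9 to 91.2) of Cspg4-high cells. After thinning, these shares were 31.6% and 35% against 80.5% and 81.3%.

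*Ccnd1*, the gene of cyclin D1, which drives entry into the cell cycle, had 66.5 and 47.9 CPM against 332.02 and 215.6 CPM (log2 difference 2.25 ± 0.23). *Ttyh2* encodes a membrane protein of the tweety family and had 58.1 and 67.4 CPM against 254.4 and 263.3 CPM (2.05 ± 0.23). *Stc1*, which encodes the secreted glycoprotein stanniocalcin-1, had, of the 8, the widest gap in the summed libraries but not on class means (limma 2.02, against 3.83 for *F2r*), with 20.99 and 8.40 CPM against 182.01 and 146.7 CPM (3.59 ± 0.40). In all of these, both Cspg4-high libraries stood above both Cspg4-absent libraries. The signaling adaptor *Sh2b3* (1.82 ± 0.26), the Notch-related transmembrane protein *Dlk1* (1.88 ± 0.29), the mitotic kinase *Cdk1* (1.90 ± 0.31) and the pseudokinase *Trib2* (1.59 ± 0.26) followed, with edgeR adjusted p of 0.388 to 0.446. In the absent libraries *Cdk1* rested on few cells, since 1 cell gave 78.3% and 83.8% of its reads. Over the main and alternative fits its difference ran from 0.94 to 3.27. DESeq2 called all 8 genes, and limma on class means called 7, *Dlk1* being the exception (0.92, adjusted p = 0.106). On thinned cells limma called 4 of the 8, *F2r*, *Ttyh2*, *Stc1* and *Sh2b3*.

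In the other direction, the 8 genes were *Gstm1*, *Ccl11*, *Gpx3*, *Ifitm1*, *Gstt1*, *Eln*, *Il6st* and *Btg2*. *Gstm1* encodes a glutathione transferase and had the smallest p of all genes. It had 549 and 469 CPM in the Cspg4-absent libraries and 47.7 and 38.6 CPM in the Cspg4-high libraries (log2 difference −3.56 ± 0.21, 11.8-fold; edgeR adjusted p = 0.091, DESeq2 adjusted p = 1.10e-38). The gene belongs to a family of similar copies, and how reads shared between copies were assigned is not given in the sources used here. *Ccl11* encodes eotaxin, a chemokine that attracts eosinophils. Its levels were 643 and 427 CPM against 79.1 and 52.6 CPM (−3.02 ± 0.20, 8.13-fold; edgeR adjusted p = 0.108, DESeq2 adjusted p = 5.26e-30). A read of *Ccl11* was found in 60% (43.3 to 75.1) and 40.9% (20.7 to 63.6) of Cspg4-absent cells and in 26.5% (19.6 to 34.3) and 20.6% (14.6 to 27.7) of Cspg4-high cells, and after thinning in 60.5% and 40% against 22.1% and 18.1%. Cspg4-absent cells had the lower median of reads per cell in both tumors, and the part of depth in this difference was not tested.

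*Gpx3*, which encodes a secreted glutathione peroxidase, had a read in 90.6% or more of the Cspg4-absent and of the Cspg4-high cells in each tumor but at different levels, 2771 and 2442 CPM against 679 and 713 CPM (−1.90 ± 0.16). *Ifitm1*, an interferon-induced membrane protein, had 853 and 671 CPM against 233.7 and 143.9 CPM (−2.04 ± 0.20). *Gstt1*, another glutathione transferase, differed by −2.83 ± 0.29, and by −1.68 without the cells with reads of at least 5 cell cycle genes. Without those cells *Gstm1* differed by −2.90. *Eln*, the gene of elastin, had 95.3 and 147.6 CPM against 12.7 and 10.805 CPM (−3.34 ± 0.42), and differed by −1.21 on class means. For *Gstt1* and *Eln*, 1 cell gave 69.7% and 67.3% of the reads in the absent library of tumor 2, and their values there rest largely on that cell. *Il6st*, the signaling subunit shared by receptors of the interleukin-6 family, stood at 1525 and 1323 CPM against 572 and 577 CPM (−1.31 ± 0.17), and the antiproliferative gene *Btg2* at 517 and 461 CPM against 186.2 and 170.9 CPM (−1.45 ± 0.19). DESeq2 called all 8 genes, and limma on class means all but *Btg2* (adjusted p = 0.0782). On thinned cells limma called 4 of the 8, *Gstm1*, *Ccl11*, *Gpx3* and *Ifitm1*.

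**Figure D2:**
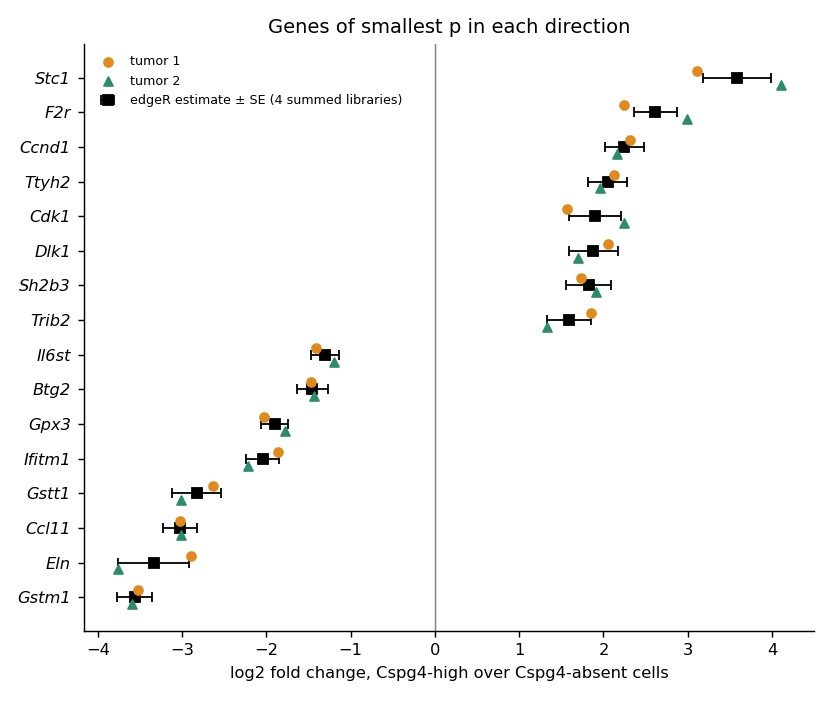
Log2 fold change of Cspg4-high over Cspg4-absent cells for the 16 genes of smallest p (8 in each direction). Squares with bars are the edgeR estimate ± SE over the 4 summed libraries, and circles and triangles are tumor 1 and tumor 2 alone. Both tumors lie on the same side of 0 for each gene, which the choice of the genes required, and *Ccl11* has the closest pair of values among the 8 genes below 0 (−3.02 in each tumor).

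Cells of the middle class, which took no part in the choice of these genes, gave a further description. Their mean log2(RPKM + 1) lay between those of the absent and the high class for 8 of the 8 higher genes in both tumors, and for 8 and 6 of the 8 lower genes in tumors 1 and 2. These genes were chosen for a gap between the absent and the high class, which makes a middle position likely. The share over all genes was not computed, so these counts have no background to be read against. *F2r* had a mean of 2.07 ± 2.84 (SD over cells), 4.91 ± 3.94 and 6.01 ± 3.25 in the absent, middle and high cells of tumor 1, and 2.12 ± 2.91, 5.02 ± 3.62 and 5.84 ± 3.42 in those of tumor 2. *Gstm1* went the other way, with 5.69 ± 3.81, 3.16 ± 3.48 and 2.51 ± 2.93 in tumor 1 and 3.95 ± 4.03, 2.74 ± 3.38 and 1.90 ± 2.75 in tumor 2. Single cells of the classes overlapped for both genes.

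**Figure D3:**
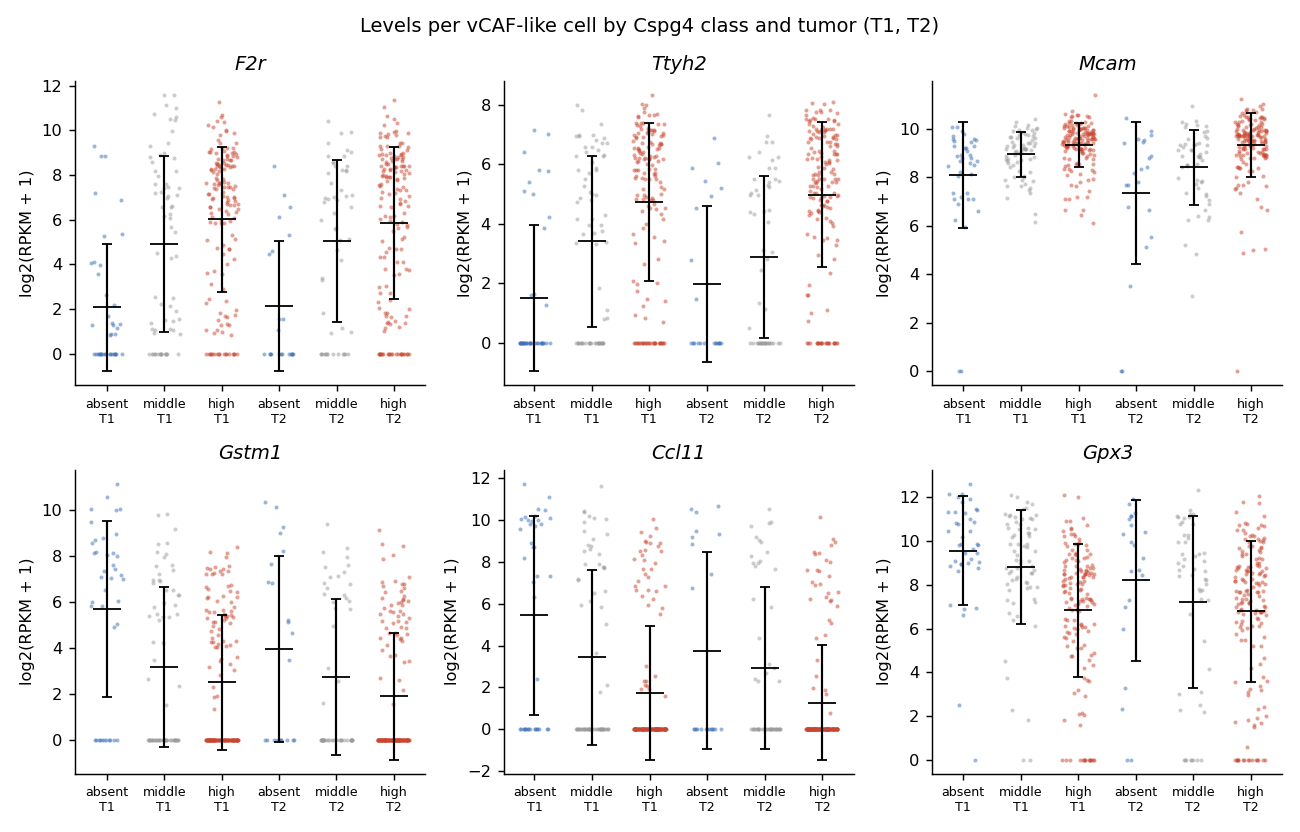
Levels of 6 genes per vCAF-like cell as log2(RPKM + 1), by *Cspg4* class (absent, middle, high) in tumor 1 (T1) and tumor 2 (T2). Points are cells, and black marks are the mean ± SD of the class, so that bars may reach below 0. Means of *F2r*, *Ttyh2* and *Mcam* are ordered from absent to high, those of *Gstm1*, *Ccl11* and *Gpx3* from high to absent, and the cells of all classes overlap.

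Reads of *Ccl11* and *Gstm1* were also counted cell by cell. Of 24 Cspg4-absent cells with a *Ccl11* read in tumor 1, 19 also had a *Gstm1* read, against 10 of the 16 without *Ccl11*. In tumor 2 these were 8 of 9 against 4 of 13. The other classes had the same order. Of middle cells with *Ccl11*, 20 of 31 and 13 of 23 had *Gstm1*, against 15 of 39 and 10 of 30 without it, and of Cspg4-high cells with *Ccl11*, 24 of 40 and 17 of 33, against 46.4% and 35% of all Cspg4-high cells. The absent cells with *Ccl11* had medians of 171264 and 160398 reads against 174703 and 203033 without it, whereas in the other classes the cells with *Ccl11* were the deeper ones, with 232298 and 182955 against 194866 and 171437 reads in middle cells and 223846 and 272367 against 202729 and 191070 reads in Cspg4-high cells. *F2r* was read in 11 of the 24 and 4 of the 9 absent cells with *Ccl11*, and in 11 of 16 and 6 of 13 without it.

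Gene lists gave a view beyond these genes. Members with an edgeR p under 0.05 before adjustment are counted below against the 3.61% (higher) and 3.33% (lower) of all genes, and where such members are named, they were chosen after their values were seen. No list member passed the adjusted threshold in edgeR on all reads with the filter on low genes, while *Ccl11*, *F2r*, *Id4*, *Ifitm1* and *Prelp* passed it on thinned cells. The median log2 difference over all genes was 0.11, and it was 0.58 when ERCC totals served as library size, which shifts every gene alike. With ERCC totals the medians of the contractile, proteoglycan, interstitial, immediate early, hypoxia, receptor, TGF-β and Notch lists turned from below to above 0, so for these the median relative to all genes, which was the same to 2 decimals with both scalings, is given as well.

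Of 15 surface proteins of pericytes tested, 4 were higher and 1 lower in Cspg4-high cells by the unadjusted p. The list median was 0.12 in the summed libraries, against 0.11 for all genes, and 0.80 on class means, against 0.20 for all genes, where limma called 6 higher and 1 lower, and 1 and 0 on thinned cells. *Mcam*, the adhesion molecule CD146, had 1606 and 1489 CPM in the Cspg4-absent libraries and 2439 and 2521 CPM in the Cspg4-high libraries (0.68 ± 0.15; edgeR adjusted p = 0.679, DESeq2 adjusted p = 0.000854). *Cd248*, or endosialin, another glycoprotein of mural cells, had 871 and 800.1 CPM against 1371 and 1235 CPM (0.64 ± 0.16), and *Art3* (0.85 ± 0.23) and the integrin subunit *Itga1* (0.53 ± 0.17) were the other 2. *Ednrb*, the endothelin receptor B, went against the list with 279.1 and 561 CPM against 88.6 and 87.4 CPM (−2.17 ± 0.32; DESeq2 adjusted p = 3.80e-09). *Pdgfrb* differed by 0.01 ± 0.14. The list of other vCAF genes includes members that the study named from these same cells, so the list is not independent of them. It had 3 of 16 members higher (*Mcam*, *Cd248*, *Itga1*) and 3 lower (*Nr2f2*, *Vtn*, *Des*). On class means limma called 6 higher and 0 lower, with a median of 0.62, and 0 and 0 on thinned cells.

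Genes known from pericytes of small vessels were divided. Of 17 members, 1 was higher, the transcription factor *Tbx2* (69.9 and 49.02 against 151.7 and 201.1 CPM, 1.57 ± 0.33), and 4 were lower, *Ifitm1*, *Colec11*, *Apoe* and *Vtn*. *Colec11*, a collectin of innate immunity, had 65.6 and 67.7 CPM in the Cspg4-absent libraries, of which 1 cell gave 61.6% and 83.6%, against 1.73 and 2.89 CPM. Vitronectin (*Vtn*) had 754 and 434 CPM against 423 and 332.6 CPM (−0.61 ± 0.20). The abundant members *Lhfp* and *Cox4i2* differed by −0.16 ± 0.15 and 0.42 ± 0.19.

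Contractile and cytoskeletal genes of smooth muscle had 1 of 29 members higher (*Casq2*, a calcium store protein) and 4 lower (*Synpo2*, *Lmod1*, *Myh11*, *Des*), with a median of −0.11, or −0.21 relative to all genes. On class means, limma called 3 higher and 0 lower, with a median of 0.28, or 0.08 relative to all genes. *Synpo2*, an actin-binding protein, had 351.8 and 231.9 CPM against 80.7 and 93.7 CPM (−1.72 ± 0.29). The 3 most abundant members differed little, *Acta2* (α-smooth muscle actin) by 0.01 ± 0.17, *Myl9* by −0.23 ± 0.20 and *Tpm1* by −0.35 ± 0.16. For *Acta2* the scales disagreed, since limma on class means gave 1.12 (adjusted p = 0.000261), and 1 cell gave 40.5% of its reads in the absent library of tumor 2.

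Among RGS proteins and vasoactive receptors, 2 of 18 members were higher, *F2r* and *Rgs3*, and 3 were lower, *Ednrb*, *Ramp1* and *Rgs16*. *Rgs16*, a regulator of G protein signaling like the score genes, had 1358 and 689.6 CPM against 573 and 499 CPM (−0.86 ± 0.24; DESeq2 adjusted p = 0.00442), and the endothelin receptor A (*Ednra*) differed by −0.38 ± 0.17. In the Notch pathway, which sustains mural cells, the receptor *Notch1* was higher (62.4 and 78.5 against 135.9 and 170.7 CPM, 1.12 ± 0.25) and none of the 14 was lower by the unadjusted p. The targets *Heyl* and *Hes1* differed by 0.13 ± 0.23 and −0.17 ± 0.38. Of 13 PDGF, VEGF and angiopoietin genes, *Angpt1* was higher and the VEGF receptor *Flt1* lower (335.3 and 457 against 223.7 and 246.96 CPM, −0.74 ± 0.20), while *Pdgfa* differed by 0.21 ± 0.24 and *Angptl2* by 0.25 ± 0.22.

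**Figure D4:**
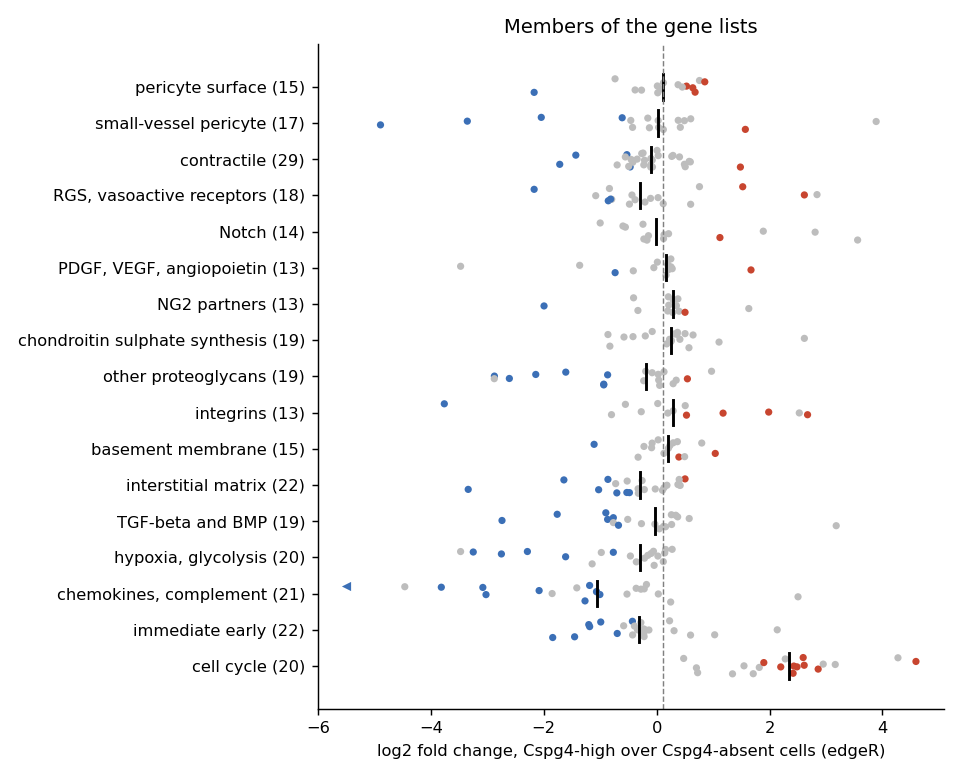
Log2 fold change (edgeR, Cspg4-high over Cspg4-absent) of each tested member of 17 gene lists, with the number of members in parentheses. Red and blue points have an unadjusted p under 0.05, grey points do not, black bars are list medians and the dashed line is the median of all genes, 0.11. One chemokine beyond the axis is drawn as an arrow at its left end. All 20 cell cycle genes lie above 0, and 18 of 21 chemokine, cytokine and complement genes lie below it.

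Genes that act with NG2 or build its sugar chains were tested next. Proteins that bind, cleave or anchor NG2 had a median of 0.28, with 10 of 13 above 0 and 1 each past the unadjusted p, and on class means a median of 0.71, where limma called 6 higher and 1 lower, and 0 and 0 on thinned cells. *Col6a2*, a chain of the NG2 ligand collagen VI, was the higher one (1265 and 1012 against 1819 and 1414 CPM, 0.50 ± 0.15), and *Col6a1* differed by 0.40 ± 0.15, *Itgb1* by 0.29 ± 0.15 and *Plat*, the tissue plasminogen activator, by 0.20 ± 0.16. Galectin-3 (*Lgals3*) was the lower one (49.5 and 70.4 against 13.3 and 16.4 CPM, −1.99 ± 0.48). Of 19 enzymes of chondroitin sulphate synthesis, 0 passed the unadjusted p in either direction and 0 were called by DESeq2 or by limma on class means. Their most abundant members, *Chpf*, *Chst12* and *Csgalnact2*, differed by 0.23 ± 0.28, −0.58 ± 0.36 and 0.18 ± 0.33, with standard errors that leave room for changes of that size.

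Other proteoglycans were lower more often than higher, 7 against 1 of 19. The lower ones were *Prelp* and *Fmod* of the small leucine-rich family, the syndecans *Sdc1*, *Sdc2* and *Sdc4*, *Gpc6* and *Tgfbr3*. *Sdc1* had 265.5 and 589.7 CPM against 105.2 and 159.8 CPM (−1.61 ± 0.23; DESeq2 adjusted p = 1.25e-06), and *Sdc2* 542 and 500.0 CPM against 294.1 and 251.5 CPM (−0.94 ± 0.18). *Prelp* (−2.87 ± 0.26) was read in 35% and 18.2% of Cspg4-absent cells, and 1 cell gave 62.8% of its reads in tumor 2. *Aspn*, or asporin, was the higher one (1440.0 and 1259 against 2039 and 1893 CPM, 0.54 ± 0.15), and biglycan (*Bgn*), the most abundant, differed by 0.13 ± 0.14 and *Col18a1* by 0.29 ± 0.16. The list median was −0.19, or −0.30 relative to all genes, and limma on class means called 2 higher and 3 lower.

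Integrins had 4 of 13 members higher, *Itga6*, *Itga4*, *Itga5* and *Itga1*, and 1 lower, *Itga11*. *Itga6*, a laminin receptor subunit, had 7.38 and 9.21 CPM against 47.1 and 58.8 CPM (2.67 ± 0.56; DESeq2 adjusted p = 0.0190) and was read in 5.00% and 18.2% of Cspg4-absent cells and in 33.8% and 38.1% of Cspg4-high cells. The abundant subunit *Itgb5* differed by −0.27 ± 0.19. In the basement membrane list, *Col15a1* (151.6 and 203.4 against 317.1 and 410.1 CPM, 1.04 ± 0.19) and *Col4a1* (4877 and 5906 against 6618 and 7516 CPM, 0.39 ± 0.13) were higher and the laminin chain *Lamb2* was lower (−1.11 ± 0.21), of 15 tested. *Sparc* and *Col4a2* differed by −0.22 ± 0.13 and 0.23 ± 0.14.

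For the fibrillar matrix of the interstitium, summed libraries and class means of log values gave different counts. In the summed libraries, of 22 members, 1 was higher, *Col6a2*, and 7 were lower, *Eln*, *Postn*, *Col3a1*, *Col1a1*, *Col1a2*, *Lox* and *Tnc*. Periostin (*Postn*) had 6752 and 6907 CPM in the Cspg4-absent libraries and 3672 and 3839.6 CPM in the Cspg4-high libraries (−0.86 ± 0.13; DESeq2 adjusted p = 1.01e-09), and type III collagen (*Col3a1*) 10932 and 7131 CPM against 5683 and 5161 CPM (−0.71 ± 0.17). On class means, where each cell counts the same, the differences of these 2 genes were −0.21 and 0.00 (limma adjusted p = 0.520 and 0.998). The list median was −0.29 in the summed libraries, or −0.40 relative to all genes, and 0.26 on class means, or 0.06 relative to all genes, where limma called 4 higher and 1 lower. *Sparcl1*, the most abundant, differed by −0.26 ± 0.13.

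Chemokines, cytokines and complement genes formed the list with the most members lower in Cspg4-high cells, 9 of 21 (among them *Ccl11*, *Ccl2*, *C4b*, *Serping1*, *C1s1*, *Il6*, *Cxcl1* and *Ccl19*) and 0 higher, and DESeq2 called the same number. Its median was −1.06, or −1.17 relative to all genes with both scalings. On class means it was −0.33, or −0.53 relative to all genes, where limma called 7 lower, and on thinned cells limma called 2 lower. *Serping1*, the inhibitor of complement C1, had a read in 99.4% or more of the Cspg4-absent and of the Cspg4-high cells in each tumor, with 4726 and 3625 CPM against 2158 and 1815 CPM (−1.06 ± 0.14; edgeR adjusted p = 0.350, DESeq2 adjusted p = 7.14e-13). The complement protease *C1s1* had 904 and 609 CPM against 348.1 and 304.8 CPM (−1.19 ± 0.19). Complement component C4 (*C4b*) differed by −3.81 ± 0.50 from a low level. These 3 genes were also lower on class means (limma adjusted p of 1.49e-08 to 0.000917). *Ccl2*, a chemokine for monocytes, differed by −3.08 ± 0.32, but 1 cell gave 95.2% of its reads in the absent library of tumor 2 and limma gave an adjusted p of 0.509. The MHC class I genes *B2m* and *H2-D1* differed by −0.22 ± 0.21 and −0.18 ± 0.18.

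TGF-β and BMP genes had 0 of 19 members higher and 6 lower, among them the targets *Id4* (143.04 and 216.1 against 24.4 and 28.4 CPM, −2.74 ± 0.29) and *Id3* (−0.68 ± 0.18), while *Eng* and *Tgfb3* differed by 0.12 ± 0.18 and 0.16 ± 0.22. On class means the median of this list was 0.05, or −0.15 relative to all genes, and limma called 1 higher and 1 lower. Of 20 hypoxia and glycolysis genes, 0 were higher and 5 lower, *Bnip3*, *Adm*, *Ndrg1*, *Pfkp* and *Ankrd37*. The tumors differed, with a list median of 0.09 in tumor 1 and −0.69 in tumor 2. On class means the list median was 0.25, or 0.05 relative to all genes, against −0.29 and −0.39 in the summed libraries, and limma called 1 higher and 2 lower. In the absent library of tumor 2, 1 cell gave 50.0% to 99.1% of the reads of each of these 5 genes. *Aldoa*, *Ldha* and *Epas1* differed by −0.22 ± 0.21, 0.14 ± 0.25 and 0.27 ± 0.15. Immediate early genes, which also respond to tissue dissociation, had 0 of 22 members higher and 7 lower. *Fos* had 5774 and 3824 CPM against 3912 and 3112 CPM (−0.43 ± 0.15), *Nr4a1* −1.19 ± 0.19, and *Egr1* and *Zfp36* −0.23 ± 0.15 and −0.34 ± 0.21. On class means limma called 0 members of this list in either direction. Its median was −0.31, or −0.42 relative to all genes. Relative to all genes, the medians of the hypoxia, receptor, TGF-β and Notch lists were −0.39, −0.40, −0.14 and −0.12.

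Cell cycle genes were the list with the most members higher in Cspg4-high cells. All 20 members lay above 0 with a median of 2.35, 9 of them at an unadjusted p under 0.05 (*Top2a*, *Ccna2*, *Mki67*, *Cdk1*, *Ccnb2*, *Mcm3*, *Plk1*, *Aurkb* and *Rrm2*) and 0 in the other direction, and DESeq2 called 7. The median was 1.40 with each cell scaled to the same total and 0.54 on class means, where limma called 5 higher and 0 lower, and on thinned cells limma called 0 of the 20. *Top2a*, the topoisomerase of dividing cells, had 34.6 and 27.6 CPM against 163.02 and 168.1 CPM (2.42 ± 0.30), and *Mki67* 20.7 and 21.4 CPM against 130.6 and 98.1 CPM (2.43 ± 0.36). *Pcna* differed by 0.73 ± 0.30. In the absent libraries 1 cell gave 99.6% and 99.02% of the *Top2a* reads, so that these levels rest on few cells.

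The share of cells gave the same direction. Reads of at least 5 of the 20 cell cycle genes were found in 25.8% (19.1 to 33.6) and 21.3% (15.2 to 28.4) of the Cspg4-high cells, and in 3 of 40 (7.50%, 1.57 to 20.4) and 3 of 22 (13.6%, 2.91 to 34.9) Cspg4-absent cells. The intervals of the classes overlapped in both tumors. With each cell thinned to 50000 reads, 22.1% (15.8 to 29.7) and 18.7% (12.9 to 25.8) of Cspg4-high cells passed this count, against 5.26% (0.644 to 17.7) and 5.00% (0.127 to 24.9) of Cspg4-absent cells. Middle cells had 11.4% and 11.3% with all reads. Without the cells with 5 such genes, the list medians were −0.90 for chemokines and complement and 2.11 for the cell cycle genes that passed the filter. The contractile, Notch and capillary lists, whose medians lie near 0, changed sign (to 0.02, 0.12 and −0.05), as did the epithelial markers (from −1.39 to 0.27) and the immune markers (from −0.23 to 4.40, with no more than 2 genes tested).

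**Figure D5:**
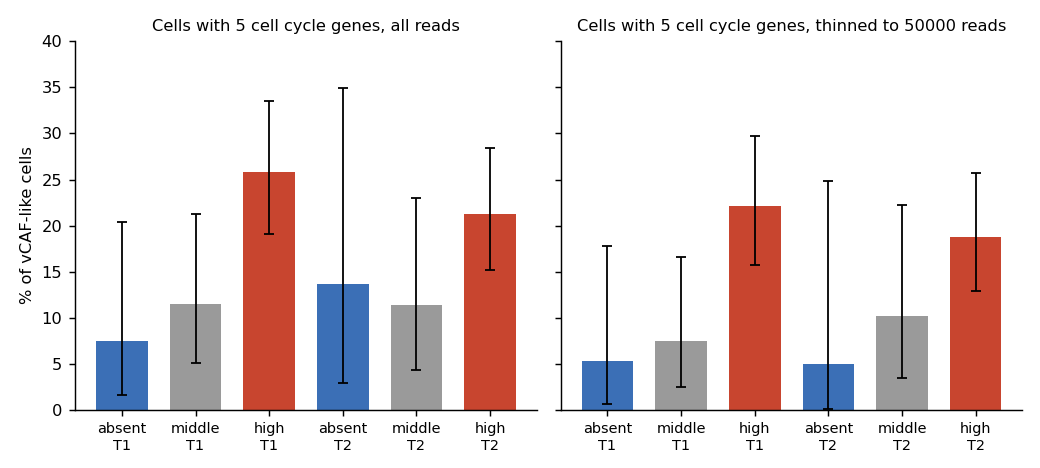
Percentage of vCAF-like cells with reads of at least 5 of 20 cell cycle genes, by *Cspg4* class and tumor (T1, T2), with all reads (left) and after thinning each cell to 50000 reads (right). Bars are shares and lines are exact 95% binomial intervals. The share is highest in the high class of both tumors, and the intervals of the absent class are wide, above all for the 22 cells of tumor 2.

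Markers of other cells were low in both classes. Summed over 11 endothelial markers, the libraries held 185.5 to 391 CPM, mostly from *Emcn*, which was lower in Cspg4-high cells at an unadjusted p (−0.66 ± 0.21), and *Pecam1* and *Cdh5* had no read in any library. The 12 immune markers summed to 0.497 to 12.9 CPM, and *Ptprc* was read in 1 cell, of the absent class in tumor 2. The 9 markers of Schwann cells and oligodendrocyte precursors, the latter also a source of NG2, summed to 1.05 to 9.09 CPM, and *Olig1*, *Olig2* and *Cdh19* had no read. Epithelial markers summed to 62.2 and 470 CPM in the Cspg4-absent libraries and 38.3 and 148.2 CPM in the Cspg4-high libraries, led by *Csn3* and *Wfdc18*, and *Epcam* was read in 2 and 1 Cspg4-absent cells and in 4 and 10 Cspg4-high cells. The milk protein gene *Csn3* was lower in Cspg4-high cells at an unadjusted p (−1.39 ± 0.42). Markers of dCAFs, a CAF class with epithelial genes, summed to 69.8 and 410 CPM against 30.7 and 138.1 CPM, and markers of matrix CAFs outside the rule to 150 and 370 CPM against 140.5 and 301.3 CPM. Both lists and the epithelial one were thus higher in tumor 2 in both classes, and their part in the differences between the classes was not tested.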

How the data were processed

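Single cells of 2 tumors (384 wells each) were measured by Smart-seq2. Reads had been aligned by the authors with STAR to mm10 and assigned to RefSeq genes, and the deposited counts are whole reads per gene, not normalized. The deposited RPKM values were computed by the authors with rpkmforgenes. Tables held 24490 endogenous genes and 92 ERCC spike-ins, and 0 columns were left unused. Cells, gene lists and comparisons were chosen with earlier results of these data known. The authors gated doublets out in the sort, and no doublet caller was run.

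Of 371 and 346 wells that passed in tumors 1 and 2, 261 and 235 were vCAF-like. These were 151 and 160 Cspg4-high, 70 and 53 middle and 40 and 22 Cspg4-absent cells, so that 373 cells were compared. Counts were summed per class and tumor (3801337 to 33377268 reads), a mean RPKM of 1 or more was required of each gene, and edgeR 4.0.16 (TMM, glmQLFit, glmQLFTest) was fitted with the tumor as a block, since both classes of a tumor came from the same tumor and plate. Deviations from class means correlated by 0.150 between libraries of a tumor. CPM values use TMM library sizes. The 13 genes of the rule stayed in the fit but out of all counts. The fit measures only the spread between these 4 libraries. Alternatives used DESeq2 1.42.0 (111 genes higher and 116 lower) and limma 3.58.1 (log2 with a pseudocount of 1). The edgeR and DESeq2 fits, but not limma, were also run on simulated data, and the outcome is not reported here. Named genes were the 8 of smallest p per direction with the same sign in both tumors and a read in 25% or more of the higher class, and in each list the 3 members of highest mean RPKM (lists of markers of other cells are given as sums). Coordinates come from RefSeq's GRCm38.p6. Thinning to 50000 reads left out 2 absent cells per tumor and 2 and 5 high cells. Shares carry exact 95% intervals (scipy 1.17.1), and the limit of 0 reads is 3 reads. Results of some list members are not reported here.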

Additional observations from a re-analysis of the deposited data

Results flagged for a closer look

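Wells outside the comparison also carried *Cspg4* reads. Among kept wells whose matrix score was at least the vascular score, 73.3% of those of tumor 1 and 73.8% of those of tumor 2 had a read, with 21 and 25 wells at an RPKM of at least 20. Among wells that did not pass, 38.5% and 28.9% had a read at a median depth of 621 and 2227 reads. The labels give these wells the same NG2-negative sort as the others.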

How the results depend on the processing

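No gene was called by edgeR without the tumor as a replicate block (0 higher, 0 lower, with 510 and 386 at an unadjusted p under 0.05), with DESeq2's size factors, ERCC totals, filterByExpr, cells of at least 100000 reads, equal weight per cell, a *Cspg4* RPKM of at least 5, either stricter vCAF-like rule, or without cycling cells or cells with *Epcam*, *Pecam1* or *Ptprc* reads. Other settings moved the counts. DESeq2 called 0.993% of genes higher and 1.04% lower. With edgeR, no filter on genes gave 2 lower (0.0129%), thinned cells 2 higher (0.0179%) and 6 lower (0.0537%), and a *Cspg4* RPKM of at least 50 gave 1 lower (0.00896%). Limma, added after the data were seen, called 5.77% and 0.68% on class means and 0.107% and 0.0447% on thinned cells. Thinning raised the absent share to 20.5% and 14.3%. The 16 genes named by p kept their sign in all settings. For each tumor alone their choice required this, and the other settings reuse cells of the same 2 tumors. Each tumor alone, which leaves no residual spread, was not tested. Depth limits the absent class, and 1 cell dominates some of its values. The cause of these changes was not tested.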

Other observations

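Over the 6534 genes with a read in 25% or more of either class in both tumors, the log2 differences of the tumors had a Pearson r of 0.26 across genes, which are not independent replicates, and 58.2% had the same sign. Of the 50 genes lowest in tumor 1 relative to the absent class, 43 were also below 0 in tumor 2 (median −1.29), and of the 50 highest, 31 were above 0 (median 0.69). Chosen in tumor 2 and read in tumor 1, these were 42 of 50 (median −0.98) and 40 of 50 (median 0.68). All these genes had a median of 0.00 in tumor 1 and 0.01 in tumor 2. No test was made of these counts, and the classes of a tumor share their animal and plate.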
